A study of Mus musculus with 24 samples.

Results

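The acyl-CoA thioesterases and CoA hydrolases described here are 9 enzymes, chosen by name: the thioesterases Acot1, Acot2, Acot7, Acot8, Acot9, Acot11 and Acot13 and the nudix hydrolases Nudt7 and Nudt19. All 9 were measured, among 8389 genes named in the deposited values, and 17 probes carried their symbols. The authors had kept only probes detected in at least 1 sample. Acot7 had 4 probes, Nudt7 had 3, Acot1, Acot8 and Nudt19 had 2 each, and the other 4 genes had 1 each. Transcripts were measured in 3T3-L1 adipocytes, fat cells differentiated from a mouse fibroblast line, on Illumina bead arrays. There were 6 arrays of cells given GW610742, a selective agonist of PPARδ, 6 of cells given GW347845, a selective agonist of PPARγ, and 6 of DMSO controls. Treatment began at day 11 post induction and lasted 2 days. In all groups alike, the cells had been induced with dexamethasone, isobutylmethylxanthine and insulin, and insulin was present during treatment. The sample labels give 1 µM for GW610742 and 100 µM for GW347845. The study's methods name 1 µM among the doses of GW610742, but for GW347845 only doses far below 100 µM. Which doses were used for the arrays is not stated. The sources describe the arrays of a group as independent hybridizations, so a p-value here covers only how these arrays vary, and with 6 a group its precision is limited. The authors normalized the arrays of each agonist together with the DMSO arrays, so the same 6 DMSO hybridizations are present in 2 versions and both comparisons share their controls. Replicates 1 to 3 of GW347845 stood apart from replicates 4 to 6 in adipocyte marker genes, whose values are given with Nudt7. Values are on a log2 scale, on which a difference of 1 is about a doubling.

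Fatty acids are used in the cell as thioesters of coenzyme A (CoA). Acyl-CoA synthetases make these thioesters, and acyl-CoA thioesterases cleave them again to free fatty acid and CoA, which sets how much acyl-CoA is open to oxidation, to storage as triglyceride and to signaling. Thioesterases in cytosol, mitochondria and peroxisomes act on separate acyl-CoA pools. Nudt7 and Nudt19 are peroxisomal diphosphatases that break CoA and acyl-CoA itself into phosphopantetheine compounds and an adenosine nucleotide, so they remove the cofactor and not only the acyl group. PPARs are ligand-activated nuclear receptors that bind DNA together with the retinoid X receptor, and in liver several thioesterase genes, among them Acot1 and Acot2, are known to respond to PPARα.

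The genes whose brightest probe changed were Acot7 and Acot2 with GW610742, and Nudt7 and Nudt19 with GW347845. The RefSeq bases before the transcription start of these 4 genes are shown because the agonists act on DNA-binding receptors. Capitals mark matches to the GC box GGGCGG and the CCAAT box CCAAT, on either strand. They would also mark the motif AGGTCA, the repeated element of PPAR binding sites, but it had no match on either strand in these windows. Nudt7 has a second annotated start close by, whose window overlaps the one shown.
Acot7, GRCm38.p6 chr4:152185358-152185607, plus strand: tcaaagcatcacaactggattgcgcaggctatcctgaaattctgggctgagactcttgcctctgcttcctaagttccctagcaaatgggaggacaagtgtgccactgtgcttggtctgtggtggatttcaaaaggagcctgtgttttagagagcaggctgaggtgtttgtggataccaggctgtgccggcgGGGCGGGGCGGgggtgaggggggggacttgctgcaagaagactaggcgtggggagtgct
Acot2, GRCm38.p6 chr12:83987611-83987860, plus strand: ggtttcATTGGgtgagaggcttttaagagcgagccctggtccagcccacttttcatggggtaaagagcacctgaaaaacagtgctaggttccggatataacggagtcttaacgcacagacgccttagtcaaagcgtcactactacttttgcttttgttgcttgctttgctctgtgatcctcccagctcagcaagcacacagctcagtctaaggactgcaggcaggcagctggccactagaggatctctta
Nudt7, GRCm38.p6 chr8:114133368-114133617, plus strand: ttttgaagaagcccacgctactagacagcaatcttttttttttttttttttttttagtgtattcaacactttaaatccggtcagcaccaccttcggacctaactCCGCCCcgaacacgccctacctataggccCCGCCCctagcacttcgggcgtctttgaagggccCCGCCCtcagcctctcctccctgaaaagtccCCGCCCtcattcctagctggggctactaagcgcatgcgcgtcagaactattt
Nudt19, GRCm38.p6 chr7:35555929-35556178, minus strand: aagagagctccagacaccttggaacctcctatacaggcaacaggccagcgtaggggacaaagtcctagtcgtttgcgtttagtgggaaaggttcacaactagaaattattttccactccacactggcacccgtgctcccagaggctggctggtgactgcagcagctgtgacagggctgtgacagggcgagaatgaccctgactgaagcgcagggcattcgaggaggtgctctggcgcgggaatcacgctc

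RefSeq windows of 250 bases were at hand for 8 of the 9 genes, as 10 windows, since Acot11 and Nudt7 have 2 annotated starts each, and there was no entry for Acot13. None of the 10 held AGGTCA, against 14.0% of all 32851 mouse windows of this length, and none held 2 copies of it in the same direction with 1 base between them, against 0.0335% of all. A GC box was in 7 of the 10 windows, against 32.7% of all, and a CCAAT box in 5, against 33.8%. A match is a description of the letters and not a binding site, and a missing match says only that these letters are not in these 250 bases. The 2 GC boxes of Acot7 overlap in 1 run shortly before its start, and Nudt7 has 4 separate ones on the other strand.

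A gene or probe was called changed at an adjusted p under 0.05 in limma, and the brightest probe stood for its gene. Benjamini-Hochberg correction took in all probes with values in the comparison. With GW610742, of the 9 genes, Acot7 was higher and Acot2 lower than in DMSO cells, and 7 did not pass. Over all 8289 genes, 8.26% were higher and 8.69% lower, so 1 gene in each direction is near what the arrays show for genes in general. The median log2 fold change of the 9 genes was 0.02, against -0.01 for all genes. Of the 17 probes, 3 were higher, all of them Acot7 probes, and 1 was lower, against 8.19% higher and 8.93% lower of all probes.

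With GW347845, the brightest probes of Nudt7 and Nudt19 were higher, none was lower and 7 did not pass. The limma test called 10.2% of all 8297 genes higher and 12.8% lower. At an unadjusted p under 0.05, 2 of the 9 genes were higher and 1 was lower, and the methods' t-test with the same adjustment called 1 higher and none lower. Over probes, 5 of 17 were higher, from the 4 genes Acot7, Acot8, Nudt7 and Nudt19, and none was lower, against 10.4% higher and 13.5% lower of all probes. Of these 4, Acot8, Nudt7 and Nudt19 encode peroxisomal enzymes, and they are all the peroxisomal enzymes among the 9. Each of the 4 has more than 1 probe, which gives a gene more chances of a call. The share of all genes with any probe called was not computed. Acot7 and Acot8 were not called on their brightest probes. The median of the 9 genes was 0.07, against 0.03 for all genes. The largest log2 fold change of any probe of these genes was 0.25 with GW610742 and 0.39 with GW347845, while the median size of all called changes was 0.20 with GW610742 and 0.26 with GW347845.

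**Figure D1:**
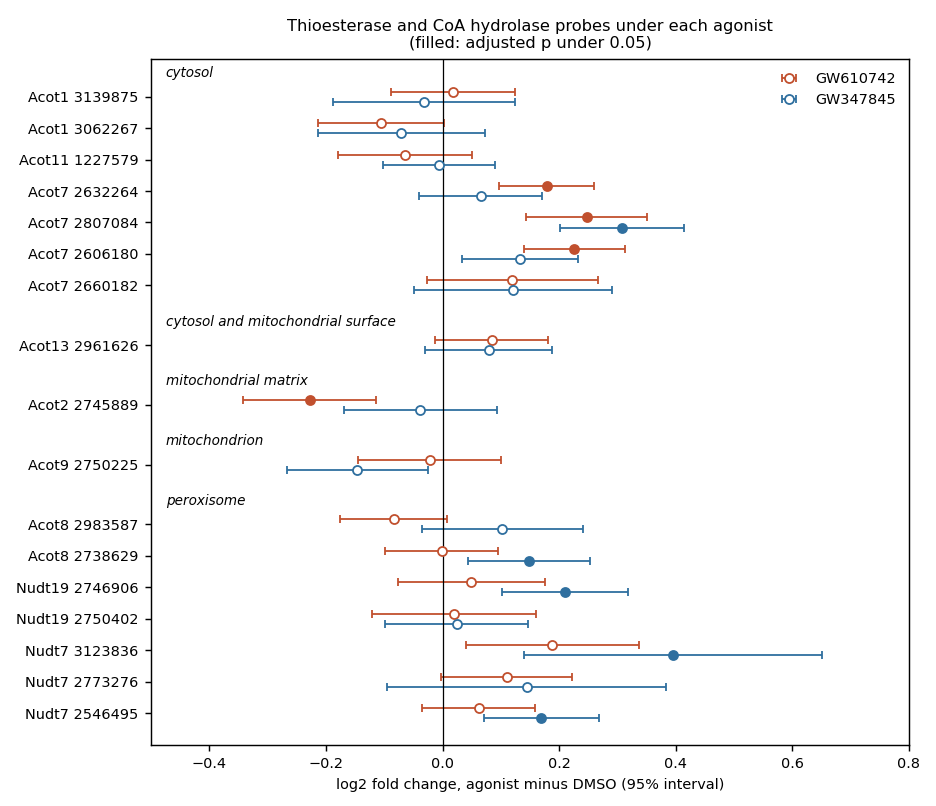
Log2 fold change of each of the 17 probes against DMSO, with GW610742 in orange and GW347845 in blue, grouped by the compartment of the enzyme. Bars are 95% intervals (n = 6 arrays per group) and filled points have an adjusted p under 0.05: 3 Acot7 probes and the Acot2 probe with GW610742, and 5 probes of Acot7, Acot8, Nudt19 and Nudt7 with GW347845.

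Acot7 is the cytosolic long-chain acyl-CoA thioesterase, abundant in brain and also known as brain acyl-CoA hydrolase. Its 4 probes are annotated to 1 transcript record of a gene with 7 curated RefSeq mRNAs, so they need not report all isoforms equally. On the brightest probe, ILMN_2632264, the lowest, median and highest values were 12.39, 12.46 and 12.50 in GW610742 cells, against 12.22, 12.27 and 12.35 in DMSO cells. Every treated array lay above every control array. The log2 fold change was 0.18 (SE 0.04, adjusted p = 0.0051), an increase of about 13.2%, where SE is the standard error. ILMN_2807084 had 10.09, 10.11 and 10.31 in GW610742 cells, against 9.78, 9.92 and 9.99 in DMSO cells, and its log2 fold change was 0.25 (SE 0.05, adjusted p = 0.0031). ILMN_2606180 had 9.97, 10.04 and 10.13 in GW610742 cells, against 9.74, 9.81 and 9.87 in DMSO cells, with a log2 fold change of 0.23 (SE 0.04, adjusted p = 0.0017). On both of these probes, too, the treated and control arrays did not overlap. The dimmest of the 4, ILMN_2660182, was the exception. It had 9.40, 9.58 and 9.79 in GW610742 cells, against 9.23, 9.52 and 9.57 in DMSO cells, and did not pass with 0.12 (SE 0.07, adjusted p = 0.25). Its values were spread more widely in both groups, with an SD of 0.14 in GW610742 cells and 0.15 in DMSO cells, where the brightest probe had 0.04 in GW610742 cells and 0.05 in DMSO cells.

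With GW347845 the Acot7 probes did not respond alike. ILMN_2807084 had 9.96, 10.00 and 10.17 in GW347845 cells, against 9.59, 9.74 and 9.81 in DMSO cells. All 6 treated arrays were above all 6 controls, and the log2 fold change was 0.31 (SE 0.05, adjusted p = 0.00030), about 23.8%. The brightest probe, ILMN_2632264, had 11.98, 12.19 and 12.26 in GW347845 cells, against 12.04, 12.09 and 12.18 in DMSO cells. Its treated and control arrays overlapped and it did not pass (log2 fold change 0.07, SE 0.05, adjusted p = 0.36). ILMN_2606180 missed the threshold with 0.13 (adjusted p = 0.051) and ILMN_2660182 with 0.12 (adjusted p = 0.29). Acot7 is one of the genes the study names as higher with this agonist, and it did so from these same arrays, so the values are not independent evidence of that direction. All 3 called Acot7 probes with GW610742, and ILMN_2807084 with GW347845, stayed below the threshold when any 1 array was left out, with adjusted p between 0.0021 and 0.014 for the GW610742 probes and between 0.00043 and 0.0011 for the GW347845 probe.

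**Figure D2:**
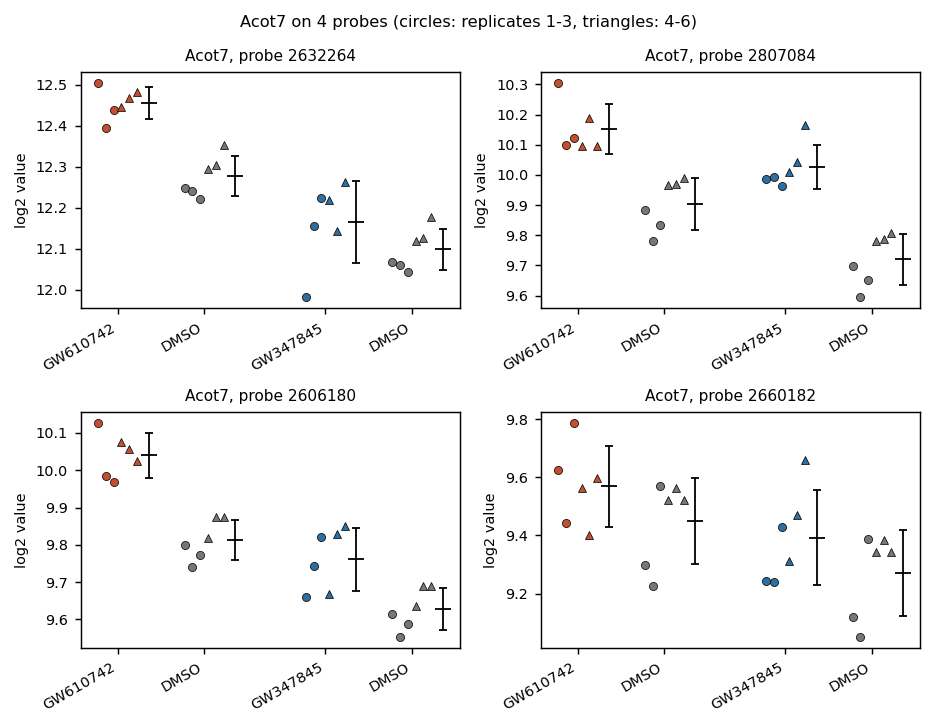
Log2 values of the 4 Acot7 probes on each array, with each agonist left of the DMSO arrays normalized with it, circles for replicates 1 to 3, triangles for 4 to 6, and bars for the mean and SD (n = 6). With GW610742 the arrays of 3 probes lay above all DMSO arrays, and with GW347845 those of ILMN_2807084 did.

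The responses of 2 probes of the same gene were set against each other by the difference of their values on each array, with exact two-sided permutation tests over the arrays, of which the smallest possible p is 0.0022. This test was chosen after the values had been seen. It was run on the 24 combinations of 2 probes of a gene and an agonist, and 3 had an adjusted p under 0.05, all with GW347845. The Acot7 response on ILMN_2632264 was 0.24 lower on the log2 scale than on ILMN_2807084 (exact p = 0.0022, adjusted p = 0.026), and that on ILMN_2807084 was 0.17 higher than on ILMN_2606180 (exact p = 0.0043, adjusted p = 0.035). The third was Nudt7, on ILMN_3123836 and ILMN_2773276, with a difference of 0.25 (exact p = 0.0022, adjusted p = 0.026). With GW610742 the largest difference between Acot7 probes was 0.13, with an adjusted p of 0.35.

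None of the other cytosolic thioesterases passed. Acot1, the long-chain thioesterase of the cytosol, had 9.44, 9.58 and 9.65 on ILMN_3139875 in GW610742 cells, against 9.38, 9.55 and 9.62 in DMSO cells, and 9.10, 9.32 and 9.57 in GW347845 cells, against 9.20, 9.37 and 9.44 in DMSO cells. Its log2 fold changes were 0.02 with GW610742 (adjusted p = 0.84) and -0.03 with GW347845 (adjusted p = 0.78). The other Acot1 probe, ILMN_3062267, gave -0.11 with GW610742 (adjusted p = 0.16) and -0.07 with GW347845 (adjusted p = 0.48). Acot1 lies next to Acot2 in a cluster of similar thioesterase genes, and a probe of one may also take up transcripts of another, so the values of both are uncertain in that respect. Acot11, the brown fat inducible thioesterase that carries a lipid-binding domain, had -0.06 with GW610742 (95% interval -0.18 to 0.05, adjusted p = 0.44) and -0.01 with GW347845 (95% interval -0.10 to 0.09, adjusted p = 0.93). Acot13, a small thioesterase of the cytosol and the mitochondrial surface, had 11.57, 11.66 and 11.72 in GW610742 cells, against 11.47, 11.55 and 11.71 in DMSO cells. The log2 fold changes of Acot13 were 0.08 with GW610742 (95% interval -0.01 to 0.18, adjusted p = 0.22) and 0.08 with GW347845 (95% interval -0.03 to 0.19, adjusted p = 0.28). These intervals limit the size of any change in the signal of these 2 probes and do not show that there was none. The Acot11 probe was dim, its mean at percentile 7.71 of all probes with GW610742 and 9.08 with GW347845. Its intervals therefore need not bound the change of the transcript.

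Acot2, the long-chain thioesterase of the mitochondrial matrix, fell with GW610742. Its single probe, ILMN_2745889, had 6.72, 6.91 and 7.004 in GW610742 cells, against 7.02, 7.10 and 7.27 in DMSO cells. The groups did not overlap, and the log2 fold change was -0.23 (SE 0.05, adjusted p = 0.0090), a decrease with a 95% interval of -0.34 to -0.11. With GW347845 the values were 6.80, 7.02 and 7.17, against 6.94, 7.01 and 7.16 in DMSO cells, and the log2 fold change was -0.04 (adjusted p = 0.69). The GW610742 call held with any 1 array left out, with adjusted p between 0.0072 and 0.025. The probe was dim: its mean lay at percentile 13.3 of all probes in the GW610742 comparison, and the file gives no detection values per array, so how far it stood above background is unknown. Acot9, a mitochondrial thioesterase of broad chain-length range, was dimmer still, at percentile 2.95 in the GW610742 comparison and 0.76 in the GW347845 comparison. It had 6.53, 6.61 and 6.70 in GW347845 cells, against 6.60, 6.79 and 6.91 in DMSO cells, and did not pass with -0.15 (SE 0.06, adjusted p = 0.075). In GW610742 cells its log2 fold change was -0.02 (adjusted p = 0.82). The near copy of Acot9, Acot10, had 0.04 with GW610742 (adjusted p = 0.55) and -0.01 with GW347845 (adjusted p = 0.86).

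Nudt7, the peroxisomal CoA diphosphatase best known from liver, was higher with GW347845 on 2 of its 3 probes. The brightest, ILMN_3123836, had 10.31, 10.57 and 10.59 in replicates 1 to 3 of GW347845 cells, against 9.81, 9.76 and 10.09 in replicates 1 to 3 of DMSO cells. Replicates 4 to 6 had 9.93, 10.01 and 9.89 in GW347845 cells, against 9.80, 9.74 and 9.73 in DMSO cells. The 6 treated arrays thus fell into a high and a lower set of 3, and in each set they lay above the same-numbered set of controls. Over all arrays the groups overlapped, because of DMSO replicate 3. The log2 fold change was 0.39 (SE 0.12, adjusted p = 0.026), and the call held with the 2 sets of arrays as a term (adjusted p = 0.0014) and not in the methods' t-test (adjusted p = 0.075). That call depended on single arrays: the adjusted p exceeded 0.05 without GW347845 replicate 1, 2 or 3 or without DMSO replicate 4, 5 or 6, where it reached up to 0.058, and the log2 fold change then ranged from 0.32 to 0.46 over all arrays left out in turn.

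The second probe of the same transcript record, ILMN_2773276, showed the same split without passing. It had 7.97, 7.97 and 8.13 in replicates 1 to 3 of GW347845 cells and 7.56, 7.44 and 7.45 in replicates 4 to 6, against a range of 7.51 to 7.80 in DMSO cells. Replicates 1 to 3 lay above all controls, and replicates 5 and 6 below all of them. The log2 fold change was 0.14 (SE 0.11, adjusted p = 0.38). The third probe, ILMN_2546495, is annotated to another transcript record of this gene, which has 5 curated mRNAs. It showed no such split: replicates 1 to 3 of GW347845 cells lay between 7.05 and 7.12 and replicates 4 to 6 between 7.01 and 7.19, against 6.79 to 6.89 in replicates 1 to 3 and 6.95 to 6.99 in replicates 4 to 6 of DMSO cells. The treated and control arrays did not overlap, with 0.17 (SE 0.05, adjusted p = 0.015), and the call held with any 1 array left out. It too is a dim probe, at percentile 17.4. With GW610742 no Nudt7 probe passed: the log2 fold changes were 0.19 (adjusted p = 0.073), 0.11 (adjusted p = 0.17) and 0.06 (adjusted p = 0.37), in the order above. The brightest probe passed when replicate 3 of DMSO or replicate 5 or 6 of GW610742 was left out, and ILMN_2773276 passed without replicate 3 of DMSO.

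**Figure D3:**
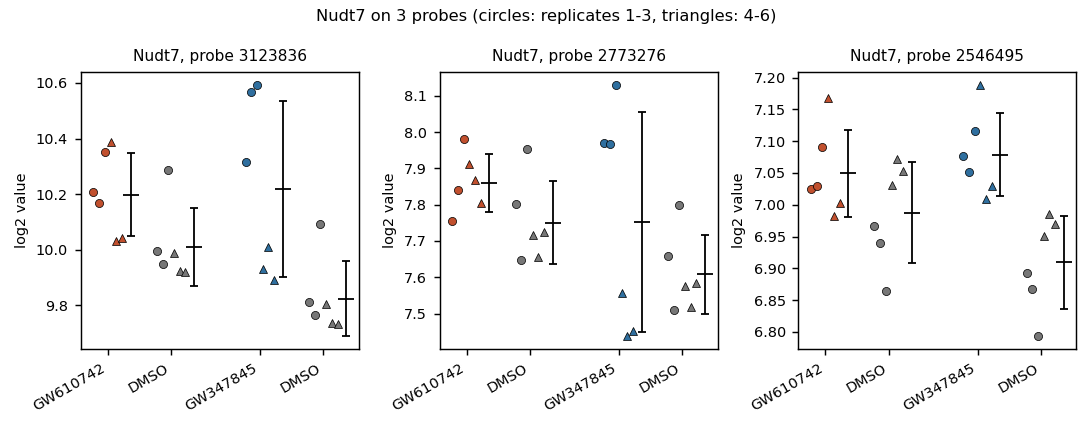
Log2 values of the 3 Nudt7 probes on each array, drawn with each agonist left of its DMSO arrays, circles for replicates 1 to 3, triangles for 4 to 6, and bars for the mean and SD (n = 6). On ILMN_3123836 and ILMN_2773276 replicates 1 to 3 of GW347845 lie above replicates 4 to 6, and on ILMN_2546495 they do not.

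The same 3 GW347845 arrays had higher values of genes of mature adipocytes. The mean of the 6 adipocyte markers measured in both comparisons, Adipoq, Plin1, Lpl, Lipe, Pnpla2 and Cidec, was 1.09, 1.31 and 1.40 above the DMSO mean in replicates 1 to 3 of GW347845 cells and 0.16, -0.13 and -0.32 from it in replicates 4 to 6. Among DMSO arrays it was highest in replicate 3, at 0.57. Over the 18 arrays, each set against the DMSO mean of its normalization, Nudt7 on ILMN_3123836 had a Pearson r of 0.93 with this marker mean and on ILMN_2773276 of 0.92, while ILMN_2546495 had 0.31 and the probes of the other genes lay between -0.53 and 0.48. These correlations are descriptions over arrays that share treatments and controls. The part of this marker difference in the Nudt7 values was not tested. In such bulk samples fewer cells of a type and less RNA per cell cannot be told apart.

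**Figure D4:**
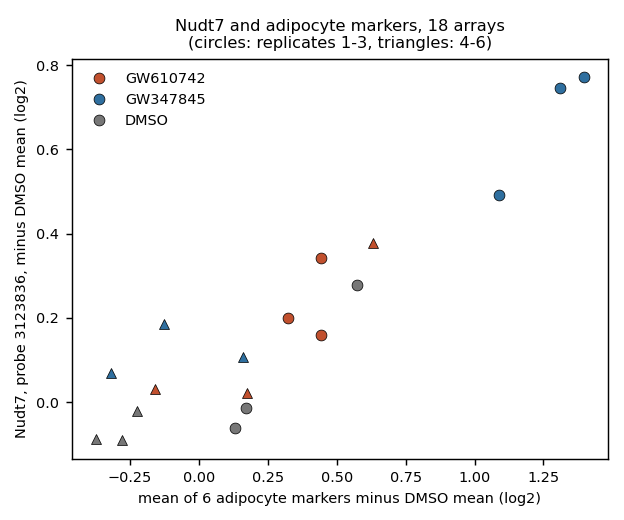
Nudt7 on probe ILMN_3123836 against the mean of 6 adipocyte markers, both as log2 values minus the DMSO mean, for 18 arrays, with circles for replicates 1 to 3 and triangles for 4 to 6. Replicates 1 to 3 of GW347845 lie at the upper right, with marker means of 1.09 to 1.40, and the other 15 arrays reach at most 0.63 on the marker axis.

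Nudt19, the other peroxisomal CoA diphosphatase, known from kidney, rose with GW347845 on its brighter probe. ILMN_2746906 had 9.76, 9.96 and 9.98 in GW347845 cells, against 9.61, 9.74 and 9.79 in DMSO cells. Of the 6 treated arrays, 5 lay above all controls, and replicate 6, at 9.76, lay among them. The log2 fold change was 0.21 (SE 0.05, adjusted p = 0.0074), about 15.7%, and remained called without any 1 array, with adjusted p between 0.0012 and 0.021. Replicates 1 to 3 averaged 9.95 and replicates 4 to 6 averaged 9.90 in GW347845 cells, against 9.71 and 9.72 in DMSO cells, so this rise was of similar size in both sets of arrays. The dimmer probe, ILMN_2750402, is annotated to the same transcript record and did not pass: it had 7.89, 8.01 and 8.13 in GW347845 cells, against 7.85, 7.98 and 8.16 in DMSO cells (log2 fold change 0.02, adjusted p = 0.79). The difference of 0.19 between the responses of the 2 probes had an exact p of 0.052 and an adjusted p of 0.18. With GW610742 the log2 fold changes were 0.05 (adjusted p = 0.60) and 0.02 (adjusted p = 0.87). Nudt19 is also named by the study as higher with the PPARγ agonist, from these arrays.

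Acot8, the peroxisomal thioesterase of broad substrate range, gave different calls on its 2 probes with GW347845. The dimmer probe, ILMN_2738629, had 7.69, 7.77 and 7.86 in GW347845 cells, against 7.51, 7.66 and 7.71 in DMSO cells, with 5 of 6 treated arrays above all controls. Its log2 fold change of 0.15 (SE 0.05, adjusted p = 0.038) was lost, at adjusted p up to 0.088, without DMSO replicate 1, 2, 4 or 5 or GW347845 replicate 2, 3 or 4, and with cyclic loess (adjusted p = 0.069). The brighter probe, ILMN_2983587, had 8.83, 9.16 and 9.23 in GW347845 cells, against 8.89, 9.02 and 9.13 in DMSO cells, and a log2 fold change of 0.10 (SE 0.06, adjusted p = 0.27). There the lowest treated array, replicate 6, stood apart, and without it the adjusted p was 0.027 and the log2 fold change 0.16. With GW610742 the log2 fold changes were -0.08 (adjusted p = 0.20) on the brighter and -0.00 (adjusted p = 0.99) on the dimmer probe.

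To compare the agonists with each other, the DMSO mean of its own normalization was taken off each treated array, and GW347845 was subtracted from GW610742. The doses given in the labels differ, and the spread of the shared controls does not enter this test. Of all 13509 probes present in both comparisons, 29.4% differed at an adjusted p under 0.05, and of the 17 probes of these enzymes 3 did, a share below that of all probes. Acot2 differed by -0.19 (95% interval -0.33 to -0.05, adjusted p = 0.046), with a response of -0.23 to GW610742 and -0.04 to GW347845. Both Acot8 probes differed: ILMN_2983587 by -0.19 (95% interval -0.31 to -0.06, adjusted p = 0.027), with responses of -0.08 to GW610742 and 0.10 to GW347845, and ILMN_2738629 by -0.15 (95% interval -0.25 to -0.05, adjusted p = 0.024). Acot2 was lost without GW610742 replicate 1, 2, 5 or 6, GW347845 replicate 3, 4, 5 or 6 or DMSO replicate 4, with adjusted p up to 0.10. Of the Acot8 calls, ILMN_2983587 was lost without GW610742 replicate 6 or GW347845 replicate 2, 3 or 5, and ILMN_2738629 without GW610742 replicate 1 or 5 or GW347845 replicate 2 or 4, with adjusted p up to 0.057. All 3 were lost when the arrays were rescaled by cyclic loess. For Acot7 the difference was 0.11 on the brightest probe (95% interval 0.01 to 0.22, adjusted p = 0.091) and -0.06 on ILMN_2807084 (95% interval -0.17 to 0.05, adjusted p = 0.37). For Nudt7 on ILMN_3123836 it was -0.21 (95% interval -0.47 to 0.05, adjusted p = 0.21), and for Nudt19 on ILMN_2746906 it was -0.16 (95% interval -0.30 to -0.02, adjusted p = 0.072). A difference between the agonists was thus not shown for the genes called with only one of them, apart from Acot2 and Acot8.

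The genes whose values over the 18 arrays were most like those of each enzyme were found by Pearson r, as a description. For Nudt7 they were Sod2, the mitochondrial superoxide dismutase, with 0.97, Dhrs7b, a peroxisomal and reticulum reductase of ether lipid synthesis, with 0.97, and Aqp7, the glycerol channel of adipocytes, with 0.96. For Nudt19 they were Surf1, an assembly factor of cytochrome oxidase, with 0.83, Abhd5, the coactivator of adipose triglyceride lipase, with 0.81, and Mta3 with 0.81. Acot8 was most like Calr3 (0.85), Acad10 (0.84) and Atg101 (0.84), and Acot2 most like Actr5 (0.88), Stk25 (0.85) and Selenof (0.84). For Acot7 they were Rcor2 (0.82), Gcnt2 (0.82) and Pebp1 (0.80), with Gcnt2 rising by 0.35 with GW610742 (adjusted p = 0.00022). For Acot1, Acot9, Acot11 and Acot13 the highest r were 0.74 (Cnot9), 0.78 (Mettl6), 0.73 (Dync2li1) and 0.69 (Naa20). Among the 9 enzymes themselves the highest r was 0.66, between Nudt7 and Nudt19.

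Genes around these enzymes give the setting. With GW610742, 10 of 13 measured PPAR responsive genes rose and none fell by limma, where at an unadjusted p under 0.05 it was 11 and none and with the methods' t-test 9 and none. Those with the smallest adjusted p were Angptl4, a secreted lipase inhibitor, with 0.80 (adjusted p = 3.4e-09), Acaa2, the last enzyme of mitochondrial β-oxidation, with 0.59 (adjusted p = 3.9e-07), and Plin2, a lipid droplet coat protein, with 0.48 (adjusted p = 0.00011). With GW347845, 8 of 14 rose, among them Angptl4 with 0.25 (adjusted p = 0.0014), Acaa2 with 0.49 (adjusted p = 0.0018) and Plin2 with 0.53 (adjusted p = 0.0065), and Pdk4, the kinase that inhibits pyruvate dehydrogenase, fell by 0.32 (adjusted p = 0.012). At an unadjusted p under 0.05, 10 were higher and 1 was lower with GW347845, and the methods' t-test called 4 higher and 1 lower. The study names Angptl4 and Acaa2 among its changed genes from the same arrays. It also names Slc27a1, Cpt2, Ech1, Abcd3 and Hsd17b4, and Adfp and Peci, older symbols of Plin2 and Eci2. The values of these genes here and below are therefore not independent of its report. The median log2 fold change of this list was 0.36 with GW610742 and 0.38 with GW347845. With GW347845 the mean over the list was 10.60 to 10.87 in replicates 1 to 3 and 10.00 to 10.13 in replicates 4 to 6. In DMSO cells it was 9.89 to 10.21, so by this mean replicates 4 to 6 lay within the range of the controls. Fabp4, Lpl, Plin1 and Cidec are on this list and also among the adipocyte markers. The mean does not show how single genes of the list behaved in replicates 4 to 6. Replicates 1 to 3 are the arrays with high adipocyte markers, and the part of these in the values of this and the following lists was not tested.

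Among the enzymes that make and carry acyl-CoA, all changes called by limma were upward. Over all genes, 8.26% were called higher with GW610742 and 10.2% with GW347845. Upward describes the called genes only, since the median log2 fold change of the synthetases was -0.05 with GW610742 and 0.09 with GW347845. With GW610742, 2 of 9 acyl-CoA synthetases and transporters rose, Slc27a1, which imports and activates long-chain fatty acids, with 0.22 (adjusted p = 0.0031), and Acsl3, a synthetase of lipid droplets, with 0.22 (adjusted p = 0.0072). With GW347845, 2 of 8 rose, Slc27a1 by 0.24 (adjusted p = 0.0019) and Acsl3 by 0.18 (adjusted p = 0.049). The carnitine system, which brings acyl groups into mitochondria, had 3 of 5 genes higher with each agonist. Slc22a5, the plasma membrane carnitine carrier, rose by 0.25 with GW610742 (adjusted p = 0.00088) and 0.25 with GW347845 (adjusted p = 0.0029). Slc25a20, the mitochondrial carnitine and acylcarnitine carrier, rose by 0.21 with GW610742 (adjusted p = 0.0056) and 0.20 with GW347845 (adjusted p = 0.032). The third was Cpt2, the inner membrane carnitine palmitoyltransferase, with GW610742 (0.36, adjusted p = 0.020) and Crat, carnitine acetyltransferase, with GW347845 (0.43, adjusted p = 0.020). The methods' t-test called 2 of the 5 higher with GW610742 and 1 with GW347845. The mean over these genes was 9.27 to 9.48 in replicates 1 to 3 and 8.94 to 9.08 in replicates 4 to 6 of GW347845 cells, against 8.87 to 9.08 in DMSO cells. Of the acyl-CoA and fatty acid binding proteins, Fabp5 rose with GW610742 (0.31, adjusted p = 0.016), as 1 of 6. With GW347845, 2 of 7 rose, Fabp4 (0.53, adjusted p = 0.016) and Acbd4 (0.56, adjusted p = 0.021). The probes of Fabp4 and Fabp5 were dim. Fabp4 averaged 6.39 in the DMSO cells of the GW347845 comparison, and Fabp5 averaged 6.88 in those of the GW610742 comparison. The methods' t-test called none of these binding proteins with either agonist, and their mean was 10.04 to 10.28 in replicates 1 to 3 and 9.51 to 9.71 in replicates 4 to 6 of GW347845 cells, against 9.48 to 9.76 in DMSO cells.

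In CoA synthesis and transport a few genes were called, in both directions. The shares of all genes were 8.26% higher and 8.69% lower with GW610742, and 10.2% higher and 12.8% lower with GW347845. So few calls among 11 genes are not read as a change of the pathway. Ppcdc, which decarboxylates a phosphopantetheine precursor of CoA, rose with GW610742 (0.35, adjusted p = 0.00063) and with GW347845 (0.36, adjusted p = 0.0034). With GW610742, Slc25a42, the mitochondrial CoA carrier, also rose (0.27, adjusted p = 0.0031). In the same cells Vnn3, of the pantetheinase family, fell (-0.31, adjusted p = 0.0079), making 2 higher and 1 lower of 11. The Vnn3 probe was dim, averaging 6.47 in GW610742 cells and 6.77 in DMSO cells. With GW347845, Slc25a17, a peroxisomal carrier of CoA and related cofactors, fell (-0.40, adjusted p = 1.3e-05), making 1 higher and 1 lower of 11. In peroxisomal β-oxidation, 3 of 12 genes rose and 1 fell with GW610742, and 5 rose and 2 fell with GW347845. Beside the shares of all genes given above, the counts of risen genes were larger and those of fallen genes were near them. The mean over this list was 9.41 to 9.57 in replicates 1 to 3 and 9.08 to 9.19 in replicates 4 to 6 of GW347845 cells, against 8.99 to 9.19 in DMSO cells. Eci2, the peroxisomal enoyl-CoA isomerase, rose with GW610742 (0.32, adjusted p = 0.00011) and fell with GW347845 (-0.48, adjusted p = 0.00037). Ech1 (0.30, adjusted p = 0.0011) and the thiolase Acaa1b (0.56, adjusted p = 0.0043) rose with GW610742, and Decr2, a peroxisomal reductase, fell (-0.18, adjusted p = 0.012). Ech1 rose with GW347845 too (0.27, adjusted p = 0.0072). With GW347845, Abcd3, a transporter of the peroxisomal membrane, rose by 0.21 (adjusted p = 0.0033) and Hsd17b4, the multifunctional enzyme of this pathway, by 0.23 (adjusted p = 0.0035). Acaa1b, singled out after its value had been seen, rose by 1.72 with GW347845 (adjusted p = 0.0066), with an SD of 1.21 over the 6 treated arrays, and this gene has a near copy, Acaa1a, with which its probe may share transcripts.

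Other hydrolases were called in both directions. Over all genes, limma called 8.26% higher and 8.69% lower with GW610742, and 10.2% higher and 12.8% lower with GW347845. These lists are small, so their counts are not read as a trait of the families. Of the 3 further acyl-CoA thioesterases measured, none passed with GW610742 by limma (1 higher and 1 lower at an unadjusted p under 0.05, none with the methods' t-test), and Them6 rose with GW347845 (0.14, adjusted p = 0.034). Of 12 other nudix hydrolases, none passed with GW610742 (1 higher and 3 lower at an unadjusted p under 0.05, none with the methods' t-test). With GW347845, Nudt2 rose (0.21, adjusted p = 0.018) and Nudt16l1 fell (-0.18, adjusted p = 0.026). The 9 thioesterases that act on acylated proteins included 3 that fell with GW347845: Abhd17c (-0.78, adjusted p = 1.4e-05), Lyplal1 (-0.54, adjusted p = 0.00047) and Abhd10 (-0.26, adjusted p = 0.0023). None of that list rose with GW347845, also at an unadjusted p under 0.05 and with the methods' t-test. With GW610742, Abhd17c rose (0.16, adjusted p = 0.019), and Ppt1, the lysosomal palmitoyl-protein thioesterase, and Abhd10 fell (-0.18, adjusted p = 0.011, and -0.16, adjusted p = 0.036). The agonists share their controls, so equal signs in both comparisons are not independent.

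Markers of the cell types in the dish were measured beside these genes. Adipoq, the hormone of mature adipocytes, averaged 13.39 ± 0.39 in GW610742 cells and 13.05 ± 0.45 in DMSO cells (SD, n = 6), and Dlk1, a marker of preadipocytes, averaged 14.47 ± 0.06 in GW610742 cells and 14.46 ± 0.07 in DMSO cells, so transcripts of both stages were present. The mean over the measured adipocyte markers ranged from 10.46 to 11.25 in GW610742 cells, against 10.24 to 11.19 in DMSO cells (6 markers), while in GW347845 cells it was 10.44 to 10.76 in replicates 1 to 3 and 9.24 to 9.65 in replicates 4 to 6, against 9.22 to 9.94 in DMSO cells (8 markers). Of these, Cidec rose with GW610742 (0.81, adjusted p = 0.050, just under the threshold) and Fabp4, on its dim probe, with GW347845. At an unadjusted p under 0.05, 2 were higher with GW610742 and 5 with GW347845, and the methods' t-test called none. Of the 2 brown or beige adipocyte markers measured, limma called none with either agonist, at an unadjusted p under 0.05 none was called with GW610742 and 1 was higher with GW347845, and the methods' t-test called none. Of 11 preadipocyte or fibroblast markers, 1 rose with GW610742, the collagen gene Col1a2 (0.23, adjusted p = 0.024). With GW347845, 2 fell, Col3a1 (-1.16, adjusted p = 4.4e-07) and Col1a2 (-0.71, adjusted p = 4.1e-05). Over all genes, limma called 8.26% higher and 8.69% lower with GW610742, and 10.2% higher and 12.8% lower with GW347845. The median log2 fold change of the 11 markers was 0.03 with GW610742 and 0.09 with GW347845. At an unadjusted p under 0.05, 3 of these markers were higher and none lower with GW610742, and 2 were higher and 2 lower with GW347845. The methods' t-test called none of them with GW610742 and 2 lower with GW347845. Their list mean was 11.11 to 11.23 in GW610742 cells, against 11.04 to 11.18 in DMSO cells, and 10.71 to 10.79 in replicates 1 to 3 and 10.92 to 11.04 in replicates 4 to 6 of GW347845 cells, against 10.88 to 11.03 in DMSO cells. Their part in the values of the thioesterases and CoA hydrolases was not tested.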

How the data were processed

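The authors measured total RNA of 3T3-L1 adipocytes on Illumina mouse WG-6 bead arrays and deposited log2 scale values that they had made with lumi, keeping probes detected in at least 1 sample, then variance stabilizing and quantile normalizing the DMSO arrays once with the arrays of each agonist. The genome build of the probes is not given in the sources used here. The table held 13964 probes, of which 12157 have 1 gene symbol, 4 several and 1803 none in the platform annotation, and it gives neither intensities nor detection values. The groups were taken from the sample labels. Each agonist was compared with the DMSO arrays of its own normalization by limma 3.58.1 in R 4.3.3, with values for 13718 probes with GW610742 and 13755 with GW347845. The script was tested on simulated data. Alternatives were a replicate block, another variance prior, array weights, median centring, cyclic loess, leaving out the dimmest 25% of probes, the mean of a gene's probes, the methods' t-test, unadjusted p, a term for replicates 1 to 3 against 4 to 6, and leaving out each array. The t-test is one the methods name for univariate data and not for the arrays. Same-numbered DMSO columns of both normalizations correlated at 0.9987 or more after gene means were removed, and others at no more than 0.226, so they are the same hybridizations. Named are all probes of the 9 genes, for each other list up to 3 called genes with the smallest adjusted p and the largest called change in the less common direction, and for each of the 9 genes the 3 genes most like it. The members and lists were chosen with earlier results of these data known. Promoter windows came from RefSeq (GRCm38.p6) and plots from matplotlib 3.10.9 in Python 3.11.15. The study's metabolite and lipid measurements were not analysed here.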

Additional observations from a re-analysis of the deposited data

Results flagged for a closer look

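Among 68 groups of 6 arrays, over the 17 probes, 5 had 1 array far from the others, where chance alone marks about 1 in 20 groups. Acot8 on ILMN_2983587 was lowest in GW347845 replicate 6, at 8.83, with the next array at 9.10. Nudt19 on ILMN_2746906 was lowest in the same array, at 9.76, with the next at 9.92. Nudt19 on ILMN_2750402 was highest in GW610742 replicate 1, at 8.45, with the next at 8.18. Nudt7 on ILMN_3123836 was highest in DMSO replicate 3, at 10.29 in the normalization with GW610742 (next 9.99) and at 10.09 in that with GW347845 (next 9.81), which is 1 hybridization in both.

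The responses to GW610742 and GW347845 differed by the limma test for Acot2 (-0.19, GW610742 minus GW347845) and for Acot8 on ILMN_2983587 (-0.19) and ILMN_2738629 (-0.15).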

How the results depend on the processing

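Of the 9 genes, 2 were called in each comparison and 2 in the difference between agonists, by limma on the brightest probe. With GW610742 the count was 1 without the dim probes, which removed Acot2, and 2 to 3 over the arrays left out in turn. With GW347845 it was 1 with the methods' t-test (Nudt19) and 1 to 3 over the arrays left out. The difference had 0 called genes with cyclic loess, 1 without the dim probes (Acot8), 5 at an unadjusted p and 0 to 3 over the arrays left out. All other alternatives gave 2 or 3 genes, though with array weights the difference called Acot7 and Acot8 and not Acot2, and the cause of these shifts was not tested, apart from the removal of Acot2 by the filter itself. Whether replicate numbers pair the samples is not known, and the main fits did not pair them. The deviations of same-numbered arrays correlated above 0.1 in 3 of 6 pairs with GW610742 and 5 of 6 with GW347845. With GW347845 these correlations ran from -0.014 to 0.54, and replicates 3, 5 and 6 were most like the DMSO array of their number. With GW610742 only replicate 3 was. With the replicate block 3 genes were called with GW610742 (Nudt7 in addition), 2 with GW347845 and 2 in the difference, and the GW347845 call of Acot8 ILMN_2738629 was lost (adjusted p = 0.069).

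Over single probes, 990 of the recomputed values kept direction and side of the threshold, 37 lost a call, 21 gained one and 42 changed sign, none of these on a called value. With array weights Acot1 ILMN_3139875 had -0.0039 with GW610742 and Acot7 ILMN_2660182 had 0.048 in the difference. With cyclic loess Acot8 ILMN_2738629 had 0.0075 with GW610742, and in the difference Acot7 ILMN_2660182 had 0.020 and Nudt19 ILMN_2750402 had 0.025. Leaving out arrays with GW610742 gave -0.013 to 0.041 for Acot1 ILMN_3139875, -0.026 to 0.017 for Acot8 ILMN_2738629, -0.051 to 0.011 for Acot9 and -0.037 to 0.053 for Nudt19 ILMN_2750402. With GW347845 it gave -0.082 to 0.011 for Acot1 ILMN_3139875, -0.032 to 0.012 for Acot11 and -0.0054 to 0.057 for Nudt19 ILMN_2750402. In the difference it gave -0.046 to 0.052 for Acot7 ILMN_2660182, -0.016 to 0.030 for Acot13, -0.098 to 0.041 for Nudt7 ILMN_2773276 and -0.061 to 0.026 for Nudt19 ILMN_2750402. The deposited values carry no background level, so dim probes such as those of Acot2, Acot9 and Acot11 are limited most.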
